A study of Homo sapiens with 6 samples.

Results

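BMP signalling and ID genes were the 13 rows of a 770-gene cancer progression panel whose symbol is ID1 to ID4, BMP followed by a number or begins with BMPR, together with ACVR1, ACVRL1, FST and AMH. They comprised 4 ligands (BMP4, BMP5, BMP7 and AMH), 1 secreted antagonist (FST), 4 type I receptors (ACVR1, ACVRL1, BMPR1A and BMPR1B), 1 type II receptor (BMPR2) and 3 ID genes (ID1, ID2 and ID4). Other ID and BMP genes were not analysed here. The values came from 2 isogenic lines of the human melanoma line A375, each with 3 samples of total RNA, read on the NanoString nCounter, which counts fluorescent barcodes hybridized to RNA without amplification. Cells of the first line carry BRAF V600E with wild-type NRAS, and cells of the second carry BRAF V600E together with NRAS Q61K, a change that locks this RAS protein in its active state. Each line bears a luciferase reporter according to their catalogue names, were untreated, grew in DMEM with 10% serum, and were used within 5 population doublings of thawing. The mutant group is 1 derivative line, and whether it is a single clone is not given in the sources used here, so the mutation and any other difference between the lines cannot be told apart. The NRAS and BRAF transcripts were not analysed here, so the labels were not checked against them.

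Bone morphogenetic proteins are secreted ligands of the TGF-beta superfamily that bring together type I and type II receptor kinases. The activated type I receptor phosphorylates SMAD1, SMAD5 and SMAD9, which join SMAD4 and switch on target genes, the ID genes being among the best known. ID proteins lack a DNA-binding region and hold basic helix-loop-helix factors in inactive pairs. The pathway acts in the neural crest, the embryonic origin of melanocytes, and melanoma cells are known to secrete BMP ligands.

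Values are normalized counts, a background-subtracted count multiplied by 1 factor per sample. They compare a gene between samples and not 1 gene with another, since probes differ in efficiency. Before the factor, the samples totalled 1158480 to 1264674 counts. The detection floor was 129.7, the mean plus 2 SD of the 8 negative control probes as deposited. Genes whose mean over the 6 samples exceeded it were tested. The probes appear to lack the sample factor that gene values carry, so the floor was stricter for wild-type than for mutant samples. Within a line Pearson's r across genes was at least 0.9961 and between lines at most 0.8154 (log2 scale). The 4 melanoma markers read here (MCAM, CSPG4, ERBB3 and SOX9) were above the floor in both lines, ERBB3 only just so in wild-type cells (mean 141). As deposited all 4 were higher in the mutant line, by 1.70-, 3.34-, 6.80- and 1.69-fold. Their summed level ran from 3422 to 3459 in the wild-type line and from 8544 to 8984 in the mutant line. The deposited factors set the housekeeping genes equal, and on that scale the median log2 difference of all 454 tested genes, mutant minus wild type, was 0.32. Of those genes 83.0% passed at an adjusted p under 0.05 (limma), 62.1% as higher and 20.9% as lower in the mutant line.

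As deposited, the ligand gene BMP4, the receptor genes BMPR2, ACVR1 and BMPR1A, and ID4 were higher in NRAS Q61K than in wild-type cells. ID1 and the antagonist gene FST were lower. BMPR1A held its call under none of the other scalings given below, and ACVR1 did not hold it after quantile normalization. The contrast was widest for ID4, which read 1 to 5.39 where NRAS was wild type and 314 to 335 where it was Q61K. Of the 13 genes 7 exceeded the floor in their mean over all samples. All 7 passed, 5 as higher and 2 as lower, beside the 83.0% of all tested genes given above. The median log2 difference of the 7 was 0.57, beside 0.32 for all tested genes. Of the 7, 5 were above the floor in both lines. BMPR2 and ID4 exceeded it only in the mutant line, so the filter left only the higher direction to these 2. The direction of the ID genes was split, with ID4 higher and ID1 lower. Over all 13, 11 genes separated the lines without overlap between samples, 7 higher and 4 lower in mutant cells. The same held for 74.1% of the 665 endogenous genes that were not at the table's minimum in every sample, 54.4% as higher and 19.7% as lower.

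**Figure D1:**
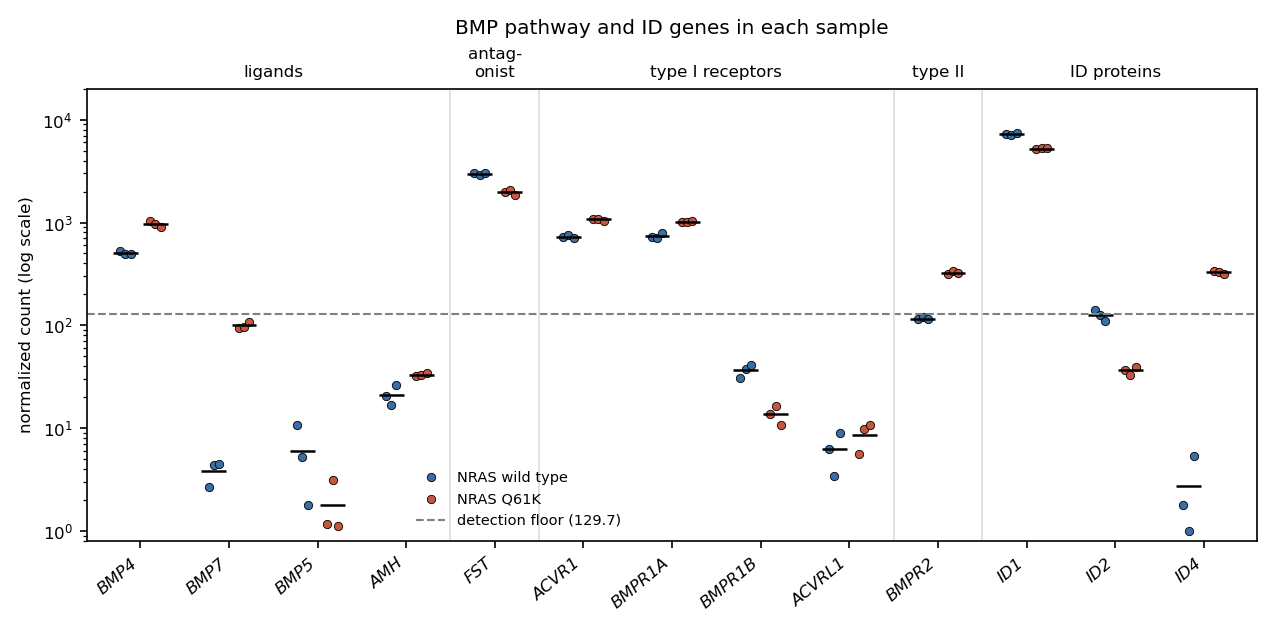
Normalized counts (log axis) of the 13 genes in the 3 samples of each line, as points, with the mean as a bar and the detection floor of 129.7 as a dashed line. BMP4, BMPR2 and ID4 sit higher in mutant samples and FST and ID1 lower, and 6 genes have a mean over all samples below the floor.

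The promoters of the 3 ID genes are shown because these genes, classed together as targets of the pathway, went in different directions. Each window runs from 250 bases before to 50 bases after the RefSeq transcript start (GRCh38.p14, plus strand), at chr20:31605039-31605338 for ID1, chr2:8681806-8682105 for ID2 and chr6:19837120-19837419 for ID4. Capitals mark TATAAA and CCAAT on either strand.
ID1: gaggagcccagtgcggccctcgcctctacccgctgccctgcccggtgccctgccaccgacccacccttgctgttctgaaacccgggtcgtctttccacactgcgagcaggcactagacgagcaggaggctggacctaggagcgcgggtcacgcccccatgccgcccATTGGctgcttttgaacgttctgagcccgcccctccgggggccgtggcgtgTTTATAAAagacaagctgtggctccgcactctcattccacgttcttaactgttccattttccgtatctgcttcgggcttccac
ID2: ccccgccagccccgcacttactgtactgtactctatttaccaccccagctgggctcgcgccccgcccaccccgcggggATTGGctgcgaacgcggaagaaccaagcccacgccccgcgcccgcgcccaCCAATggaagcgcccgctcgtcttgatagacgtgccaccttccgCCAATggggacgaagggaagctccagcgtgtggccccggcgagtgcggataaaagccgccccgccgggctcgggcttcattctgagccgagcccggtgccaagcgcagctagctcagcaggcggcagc
ID4: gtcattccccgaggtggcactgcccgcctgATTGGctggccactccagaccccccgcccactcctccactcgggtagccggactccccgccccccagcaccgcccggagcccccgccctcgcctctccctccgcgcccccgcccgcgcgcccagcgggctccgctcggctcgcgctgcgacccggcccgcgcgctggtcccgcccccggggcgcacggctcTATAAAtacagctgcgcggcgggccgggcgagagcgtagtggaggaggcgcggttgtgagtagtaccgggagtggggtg
All 3 windows hold CCAAT, in 1 place in ID1 and ID4 and 3 places in ID2, as do 34.6% of the 35116 RefSeq promoter windows. TATAAA begins 29 bases before the start in ID4. In ID1 it overlaps its own reverse complement, the pair beginning 33 bases before the start. ID2 has none in this window, and 11.5% of all windows have one. The letters GGCGCC, which BMP-regulated SMAD complexes are known to bind, read the same on both strands and occur in none of the 3, against 19.2% of all windows. The windows do not reach sequence farther from the start, so this does not show that the genes lack such a site. The share of G and C was 62.7% in ID1, 69.0% in ID2 and 76.3% in ID4, with a median of 58.7% over all windows.

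ID4 encodes the inhibitor of helix-loop-helix factors that is active in neural and glial precursors. Its wild-type values were 1.80, 1 and 5.39, and its mutant values 335, 333 and 314. The wild-type samples were at or close to the table's minimum of 1, and every mutant sample was above the floor. ID4 was thus at least 2.52-fold higher as deposited, the mutant mean of 327 ± 11.7 (SD, n = 3) over the floor (adjusted p = 1.06e-05, limma). The mutant mean before the factor gave 2.23 over the same floor. The fitted fold is not printed, since it depends on the constant added before the logarithm.

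ID1 encodes an inhibitor that responds to BMP signals in many cell types. Wild-type samples read 7179, 7102 and 7364, and mutant samples 5138, 5331 and 5254. The highest mutant sample was well below the lowest wild-type sample. ID1 was 1.38-fold lower in mutant cells (95% interval 1.31 to 1.45), at 5241 ± 97.2 against 7215 ± 135 (SD, n = 3), a log2 difference of -0.46 ± 0.03 (SE, adjusted p = 1.55e-05). Counting error alone would give a coefficient of variation of 1.12% in wild-type and 1.47% in mutant cells, and 1.87% and 1.86% were measured.

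ID2 encodes an inhibitor of the same family with broad expression. Wild-type samples read 142, 125 and 110 and mutant samples 37.0, 33.1 and 39.8. All mutant samples were lower. As deposited, only 1 wild-type sample exceeded the floor and both line means (126 ± 16.1 and 36.6 ± 3.32) were below it, so no fold is given. Before the factor the wild-type mean was 139.6, above the floor, and the mutant mean was 32.4. With a floor set from the 6 dimmer negative probes, described below, ID2 was called lower (adjusted p = 3.68e-05, limma).

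BMP4 encodes a ligand that helps to pattern the neural crest. Wild-type samples read 524, 497 and 497, and mutant samples 1035, 966 and 908. The lines were well separated, with the mutant samples more spread. BMP4 was 1.91-fold higher in mutant cells (95% interval 1.74 to 2.10), at 969 ± 63.5 against 506 ± 15.7 (adjusted p = 8.75e-06). BMP7, encoding a ligand that acts through ACVR1 among other receptors, had wild-type values of 2.69, 4.36 and 4.49 and mutant values of 95.03, 96.4 and 108. The groups did not overlap, yet every value lay below the floor and the gene was not tested.

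The other ligand genes gave little signal. BMP5 read 10.8, 5.27 and 1.80 in wild-type and 1.16, 3.15 and 1.12 in mutant samples, close to the table's minimum and overlapping. AMH, encoding the hormone that makes the Müllerian ducts regress in male embryos, read 20.7, 17 and 26.1 in wild-type and 32.3, 33.1 and 34.2 in mutant samples. The AMH groups did not overlap, and all values were below the floor.

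FST encodes follistatin, a secreted protein that binds activins tightly and some BMPs. Its values were 3049, 2901 and 3005 in wild-type and 1981, 2073 and 1851 in mutant samples. Each mutant sample was below each wild-type sample. FST was 1.52-fold lower (95% interval 1.40 to 1.65), at 1968 ± 112 against 2985 ± 76.2 (adjusted p = 4.60e-05). Not every secreted antagonist gene was lower: FSTL1, which encodes a follistatin-like protein and was listed among extracellular antagonists, was 1.82-fold higher (648 ± 31.1 against 355 ± 7.70, adjusted p = 4.10e-06). CHRDL1, chosen with its values known, encodes the BMP antagonist chordin-like 1 and was 5.41-fold higher (adjusted p = 6.56e-07).

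BMPR2 encodes the type II receptor used by most BMPs. It read 116, 120 and 114 in wild-type samples, all below the floor, and 317, 336 and 326 in mutant samples, all above it. BMPR2 was at least 2.52-fold higher as deposited, from the mutant mean of 327 ± 9.70 and the floor (adjusted p = 1.94e-07). The mutant mean before the factor gave 2.23 over the same floor. Before the factor the wild-type mean was 129.61, only just below the floor. The wild-type mean was 117 ± 2.98, close to the floor, and replicates of both lines lay near each other.

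Among type I receptors, ACVR1, a receptor of BMP7 and related ligands, read 722, 750 and 703 in wild-type and 1089, 1091 and 1043 in mutant samples. It was 1.48-fold higher (95% interval 1.39 to 1.58, adjusted p = 1.54e-05). BMPR1A, a main receptor of BMP4, read 724, 715 and 784 in wild-type and 1008, 1005 and 1032 in mutant samples, and was 1.37-fold higher (95% interval 1.27 to 1.48, adjusted p = 9.78e-05). For neither gene did the lines overlap. Both differences stood only slightly above the panel median, ACVR1 by 0.25 and BMPR1A by 0.13 (log2), where BMP4 stood 0.61 above it and ID1 and FST 0.78 and 0.92 below it.

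The other type I receptors were below the floor in every sample. BMPR1B, a receptor close in sequence to BMPR1A, read 30.5, 37.8 and 41.3 in wild-type and 13.7, 16.5 and 10.6 in mutant samples, all mutant samples being lower. ACVRL1, which is mainly an endothelial receptor of BMP9 and BMP10, read 6.28, 3.46 and 8.98 in wild-type and 5.61, 9.81 and 10.6 in mutant samples, and the groups overlapped. Endothelial markers were also examined because ACVRL1, BMPR2 and ID1 are active in endothelium. Of 8 read here, 3 exceeded the floor in wild-type and 5 in mutant cells, and their summed level ran from 869 to 957 in the wild-type line and from 1410 to 1622 in the mutant line. Single endothelial markers differed in direction. As deposited PECAM1 was 1.32-fold higher, FLT1 at least 2.85-fold and KDR at least 1.76-fold higher (2.52 and 1.56 before the factor). FLT1 and KDR exceeded the floor only in the mutant line, so the filter left them only the higher direction. ROBO4 was 1.55-fold lower (adjusted p = 0.000337, limma), and CD34 did not pass, at 258 ± 21.1 and 294 ± 44.7. TEK, TIE1 and EMCN were at the minimum of 1 in every wild-type sample and below the floor in every mutant sample. Of 7 fibroblast and mural markers, 1 exceeded the floor in wild-type cells and 4 did so in mutant cells. Their summed level ran from 526 to 550 and from 1498 to 1671. As deposited LUM and PDGFRB were at least 3.57-fold and 5.29-fold higher. FAP passed as higher with a smaller difference, at 113 ± 13.4 and 149 ± 10.5 (adjusted p = 0.00881, limma). LUM, PDGFRB and FAP exceeded the floor only in the mutant line, so the filter left them only the higher direction. DCN was above the floor in both lines and did not pass, at 216 ± 6.68 and 255 ± 46.5. COL1A1 and COL3A1 were below the floor and COL1A2 was at the minimum throughout. The 5 epithelial markers summed to 128 to 131 against 43.1 to 54.2, all below the floor, with EPCAM and CDH1 at the minimum. The 2 leukocyte markers summed to 87.3 to 130.3 against 112 to 159, with PTPRC at the minimum. The samples are cultures of lines derived from A375 and not tissue. The part of these marker transcripts in the results of the BMP and ID genes was not tested. In bulk RNA, fewer cells with a transcript and less of it per cell cannot be told apart.

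The scaling between samples decided 2 of the 7 calls. With the factors removed, replaced by positive control factors, set to equal medians or replaced by quantile normalization, the median log2 difference of all tested genes was -0.01, 0.00, -0.13 and -0.12. BMPR1A passed under none of these 4, at 0.13, 0.14, 0.00 and -0.02. ACVR1 passed under 3 of them, at 0.24, 0.25 and 0.12, and not after quantile normalization, at 0.10. BMP4 stayed higher, at 0.61, 0.62, 0.48 and 0.47, and the lower calls of ID1 and FST deepened, to -0.91 and -1.05 at equal medians. BMPR2 and ID4 passed as higher under all 4, with fitted log2 differences from 0.92 to 1.16 for BMPR2, whose wild-type mean was below the floor. The bounds given above for these 2 genes hold for the deposited factors only. Unscaled mutant means over the same floor gave 2.23 for both. The negative probes appear to lack the sample factor, so this ratio has both terms on 1 scale. For BMPR2 the fitted fold was 2.22 without the factors, 2.04 at equal medians and 1.89 after quantile normalization. The split of calls was therefore 5 higher and 2 lower as deposited and 3 higher and 2 lower after quantile normalization.

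**Figure D2:**
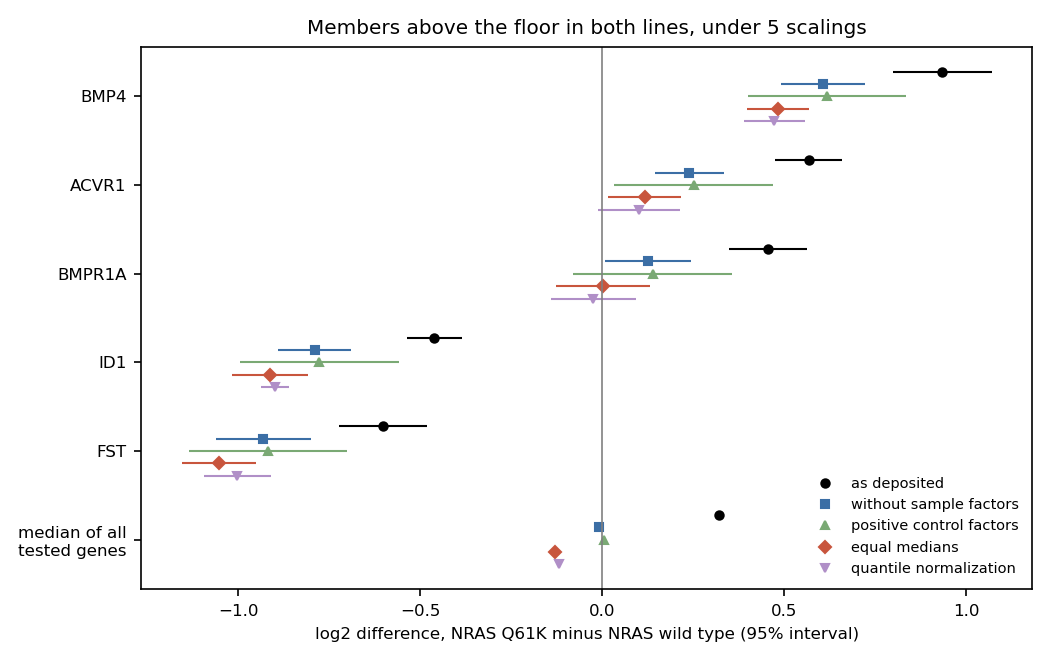
Log2 differences (mutant minus wild type, points) with 95% intervals (lines) of the 5 genes above the floor in both lines, under 5 scalings between samples, and the median of all tested genes. BMP4 stays above 0 and ID1 and FST below 0 in each, while BMPR1A runs from 0.45 as deposited to -0.02 after quantile normalization.

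The floor decided whether 4 further genes were tested. Of the 8 negative probes, 2 read 75.5 to 143.8 in every sample and the other 6 read 1 to 24.8, and a floor from those 6, chosen after the values were seen, was 20.0. With it 11 of the 13 genes were tested and all 11 passed, 7 higher and 4 lower, beside 79.4% of 548 genes, 56.9% as higher and 22.4% as lower. AMH (adjusted p = 0.00931) and BMP7 (adjusted p = 4.31e-06) were the added higher genes, and BMPR1B (adjusted p = 0.000897) and ID2 the added lower ones. At these levels counting error is large: for BMPR1B it alone gives a coefficient of variation of 15.7% in wild-type and 28.8% in mutant cells.

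Other genes of the superfamily and partners of ID proteins were taken from a list of 62, of which 23 were read here and 17 tested. As deposited, 12 were higher, 2 were lower and 3 did not pass, with a median log2 difference of 0.37 beside 0.32 for all tested genes. These counts stand beside the 83.0% of all tested genes that passed, 62.1% as higher and 20.9% as lower. The split became 7 higher and 3 lower without the factors and with positive control factors, 7 and 7 at equal medians, and 5 and 7 after quantile normalization, while that of all tested genes went from 282 and 95 to 175 and 160, 158 and 139, 150 and 206, and 153 and 205. All 5 tested SMAD genes were higher as deposited, SMAD1 by 1.56-fold (226 ± 8.61 against 144 ± 2.55, adjusted p = 8.61e-06), SMAD3 by 1.29-fold, SMAD4 by 1.25-fold, SMAD5 by 1.21-fold and SMAD2 by 1.19-fold. SMAD1, a carrier of BMP signals, held its call under 3 other scalings and not after quantile normalization. SMAD2, SMAD4 and SMAD5 turned lower at equal medians and after quantile normalization, and SMAD3, a carrier of TGF-beta and activin signals, passed under none of the other 4.

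Of the bHLH partners of ID proteins, TWIST1, a regulator of mesenchymal and neural crest cells, read 136, 123 and 137 in wild-type and 616, 569 and 616 in mutant samples. It was 4.53-fold higher (601 ± 27.2 against 132 ± 8.08, adjusted p = 2.72e-07) and passed under all 4 other scalings. Its wild-type mean was only just above the floor. TWIST2, its paralogue, was 1.61-fold higher (adjusted p = 1.12e-05) and did not pass after quantile normalization. TCF4, an E protein that pairs with tissue-restricted bHLH factors, did not pass as deposited, at 170 ± 5.15 and 168 ± 16.3, but each of the other 4 scalings called it lower. TCF3, an E protein known to bind ID proteins, was below the floor, with wild-type values of 8.98 to 12.58 and mutant values of 1.16 to 31.9.

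Signal components that serve TGF-beta also differed. TGFB1, a ligand gene, was 1.90-fold higher (2908 ± 44.0 against 1529 ± 3.28, adjusted p = 4.01e-07), and its receptor gene TGFBR2 1.71-fold higher (1931 ± 26.9 against 1129 ± 18.5, adjusted p = 1.15e-06). SMURF2, a ubiquitin ligase that marks receptors and SMADs for degradation, was 1.76-fold higher (4926 ± 69.96 against 2794 ± 114, adjusted p = 2.97e-06). These 3 passed as higher under all 4 other scalings. The lower members of the list were GDF15, a stress-induced ligand gene that was at least 9.39-fold lower (adjusted p = 3.55e-06), and TGFB2, at least 1.42-fold lower (adjusted p = 0.000181). Both exceeded the floor only in the wild-type line, so the filter left them only the lower direction. ACVR1C, SMURF1 and TCF4 were those that did not pass.

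**Figure D3:**
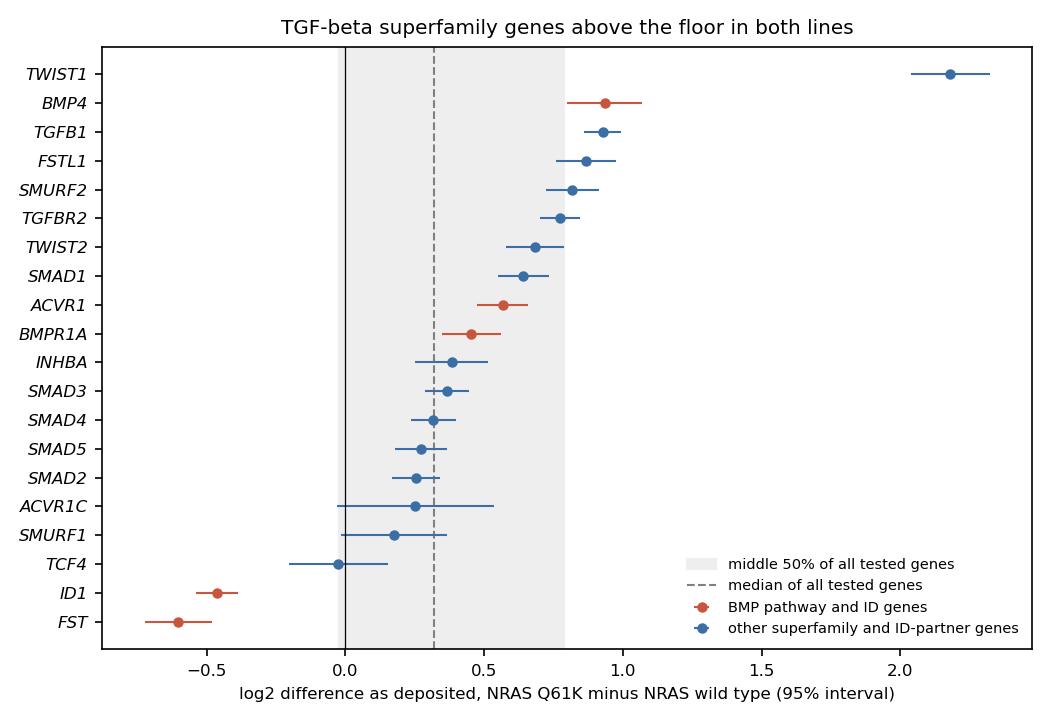
Log2 differences as deposited (mutant minus wild type) with 95% intervals for 20 tested genes above the floor in both lines, 5 of them BMP pathway or ID genes and 15 others from the superfamily list. The dashed line is the median of all tested genes, 0.32, and the shaded band the middle 50% of them. FST, ID1 and, narrowly, TCF4 lie below the band, and TWIST1, BMP4, TGFB1, FSTL1 and SMURF2 above it.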

How the data were processed

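Total RNA of 3 samples per line was read on the nCounter PanCancer Progression panel, per the labels, and samples were grouped by title. The deposited table holds a normalized, linear signal. How the authors made this signal was read from the deposited values themselves, as no label names the software or settings. Each gene value is a whole count minus a background, times 1 factor per sample (from 0.898 to 0.903 for wild-type and from 1.11 to 1.16 for mutant samples), held at a minimum of 1 (1 count times the factor in mutant samples), and 100% of values from 1.5 to 400 were whole within 0.03 on this basis. The factor brings the 30 housekeeping genes, listed from general knowledge of such panels, to a geometric mean of 728 to 733 in each sample. A true difference in those genes would move every other gene the opposite way. The negative probes appear to lack this factor. Their extremes of 24.83, 75.5 and 143.83 end in fractions read from unscaled gene counts, 0.83 and 0.50.

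All 13 symbols matched current symbols of GRCh38.p14. Of 740 endogenous genes the 454 above the floor entered a limma fit (3.58.1, under R 4.3.3) on log2(value + 1), 2-sided, with Benjamini-Hochberg adjustment over the 454. Fold changes are on that scale, which understates changes of low genes. Intervals are moderated 95% intervals of single genes. Counting error was taken as 1 over the square root of the unscaled, background-subtracted count. A fold is given as a bound against the floor when 1 line's mean did not exceed it. Such a bound sets a mean that carries the factor against a floor that appears not to. On data simulated from the means of these 454 genes 64% of simulated 1.1-fold changes and 100% of those of 1.15-fold or more were recovered. The simulation gave every gene the same spread and no shift in scaling, so it does not give the recovery of noisier genes. ACVR1C, 1.19-fold higher with a coefficient of variation of 14.4% in wild-type samples, did not pass. Nothing in the labels says that samples came from separate cultures, so p-values measure the spread between these samples, which may be technical.

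The genes, lists and alternatives were chosen with earlier results of these data known. All 13 genes are named. Of the list of 62, the rule named the 4 tested genes with the smallest adjusted p, every tested SMAD and every tested ID partner, and others make up counts of 5 or fewer. FSTL1 is one of these others, as the 1 tested extracellular antagonist of the list. TCF3, the single marker genes, CHRDL1 and the genes of the closing section were named after their values were seen.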

Additional observations from a re-analysis of the deposited data

How the results depend on the processing

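Each of the 7 tested genes kept its call under a constant of 16 in place of 1, no floor, a floor on the higher line mean, a floor from the 6 dimmer negative probes, an intensity trend, the replicate block, and without any 1 sample. The exceptions came from scaling: BMPR1A was not called with the factors removed, with positive control factors or at equal medians, and it reversed after quantile normalization, to -0.0244 (log2), where ACVR1 was not called either. The count of called BMP and ID genes was 7 and became 11 with no floor and 11 with the floor from the dimmer probes, since 6 and 4 more genes were then tested. Leaving out 1 sample gave 7 called genes each time, 14 to 16 of the superfamily list and at least 352 of all tested genes, against 377 with all 6. Across the panel 282 genes were higher and 95 lower as deposited, 175 and 160 without the factors, 158 and 139 with positive control factors, 150 and 206 at equal medians and 153 and 205 after quantile normalization. The replicate numbers were not treated as pairs: deviations of same-numbered samples correlated at 0.22, 0.05 and 0.07, and not every sample correlated best with its own number. With the replicate number as a block, 392 genes, 7 BMP and ID genes and 16 of the list were called. The floor limits BMP5, BMP7, AMH, BMPR1B, ACVRL1 and ID2, whose line means as deposited lie below it. Before the factor the wild-type mean of ID2 exceeded it.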

Other observations

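Other modulators of BMP and related ligands on the panel, named after their values were seen, did not move alike. CHRDL1, encoding chordin-like 1, a secreted BMP antagonist, read 167, 189 and 158 in wild-type and 999.7, 890.3 and 896 in mutant samples. It was 5.41-fold higher in mutant cells (95% interval 4.72 to 6.19, adjusted p = 6.56e-07, limma) and passed as higher under all 4 other scalings. BMPER, encoding a secreted BMP-binding protein of endothelium, did not pass, at 234 ± 23.0 in wild-type and 216 ± 40.3 in mutant samples (SD, n = 3). LEFTY1, encoding an inhibitor of Nodal, was at the minimum of 1 in every wild-type sample and read 54.2 to 76.7 in mutant samples, below the floor. TDGF1, a Nodal co-receptor gene, did not pass, at 197 ± 13.98 and 246 ± 40.

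A ratio of 2 genes within a sample does not depend on the factor of that sample, apart from the added constant of 1. For 4 such ratios, chosen after the values were seen, the lines did not overlap, and the exact permutation test gave p = 0.1 for each (2-sided, 0.1 after adjustment over the 4), the smallest that 3 against 3 samples allow. BMP4 relative to FST ran from 0.166 to 0.172 in the wild-type line and from 0.466 to 0.522 in the mutant line, a 2.90-fold difference. BMPR2 relative to BMPR1A was 0.147 to 0.169 and 0.315 to 0.335, and BMPR2 relative to ACVR1 was 0.161 to 0.164 and 0.292 to 0.314. ID1 relative to BMP4 ran from 13.7 to 14.8 in the wild-type line and from 4.96 to 5.78 in the mutant line, a 2.63-fold difference. BMPR2 was below the floor in wild-type cells, so its ratios there rest on values under that limit. Absolute ratios depend on the probes, and only their difference between lines is comparable.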
